A study of Mus musculus with 20 samples.

Results

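Loss of the cardiomyocyte glucocorticoid receptor was examined in the left ventricular free wall of the mouse at lights on (zeitgeber time 0, ZT0). All libraries whose titles gave the time ZT0 were used, 5 of genotype CardioGRKO and 5 of genotype GRflox, which is 10 of the 20 libraries of the study. Both genotypes were male C57BL/6 mice of about 9 to 13 weeks that carried the floxed receptor alleles (GRfl/fl). CardioGRKO mice also carried alphaMHCCre/+, a Cre recombinase under a promoter active in cardiomyocytes, and GRflox mice were littermates without it. Receptor loss and the presence of Cre cannot be told apart in these groups, since no group had Cre without floxed alleles. The other 10 libraries, 5 of each genotype at lights off (ZT12), entered the model to estimate the spread and are used below for 1 comparison. Hearts were perfused with Tyrode solution before the wall was dissected, and poly(A)-enriched RNA was sequenced. The labels do not tie replicates to named animals, so p-values measure the spread between libraries.

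The glucocorticoid receptor is a nuclear receptor that binds cortisol or corticosterone in the cytoplasm, moves to the nucleus and acts on genes through paired half-sites in DNA or through contacts with other factors. In the heart it is present in cardiomyocytes and in the vascular, stromal and immune cells around them. Circulating glucocorticoids follow a daily rhythm, and in nocturnal rodents they are low around lights on and high around lights off.

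The 10 libraries held between 5854462 and 37648421 counted reads. CardioGRKO replicate 1 was the shallowest and the second shallowest had 11143527. When the 10 libraries were placed by principal components, the first component (33.1% of the variance) placed GRflox between -19.2 and -16.2 and CardioGRKO replicates 2 to 5 between 8.6 and 15.4, with replicate 1 at 40.1. The second component (17%) placed CardioGRKO replicate 5 at -36.5 and replicate 1 at 19.7, with all other libraries between -3.1 and 9.2. Replicate 1 also carries a run label of its own in the deposited data, and its depth cannot be told apart from whatever that label marks. Values without it are given for some of the calls and counts that they change. Other class counts below were made with it included and may shift without it. Levels are CPM, counts scaled to a common library size with edgeR's TMM factors, listed in the order of replicates 1 to 5.

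Nr3c1, which codes for the receptor (chromosome 18, 39410545 to 39519421 in GRCm38), was counted at 118, 122, 106, 113 and 115 CPM in the GRflox libraries. In CardioGRKO it was counted at 51.9, 53.8, 54.5, 54.4 and 61.1 CPM. All 5 CardioGRKO libraries lay below all GRflox libraries, with a log2 fold change of -1.06 ± 0.06 (SE) and an adjusted p of 2.04e-11 (edgeR quasi-likelihood test, Benjamini-Hochberg). Each value holds reads from the whole gene and from every cell type in the tissue, so exons outside the deletion and cells without Cre add to it. Here as below, fewer cells of a type and less RNA per cell cannot be told apart.

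The question of the comparison was which genes the ventricle expressed differently at lights on when its cardiomyocytes lacked the receptor. Of 14007 genes that passed the expression filter, 2060 differed (14.7%) at an adjusted p under 0.05, and these are said here to be called. In CardioGRKO 1031 were higher (7.36%) and 1029 lower (7.35%), as the plot of change against level shows. The higher genes rose by a median of 1.29-fold and the lower genes fell by a median of 1.2-fold. A change of at least 1.5-fold was seen in 309 higher and 159 lower genes, and one of at least 4-fold in 25 and 14. In 1388 of the called genes the 5 libraries of each genotype did not overlap, and over all tested genes 11.9% had no overlap.

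Called genes were unevenly spread over expression levels. In the lowest 20% of tested genes by mean level 5.6% were higher and 2.25% lower. In the highest 20% 9.03% were higher and 17.2% lower. The part of depth in this pattern was not tested. By gene type, 993 higher and 1003 lower genes stood among 13334 protein-coding genes, and 31 higher and 24 lower among 548 long noncoding RNA genes.

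**Figure D1:**
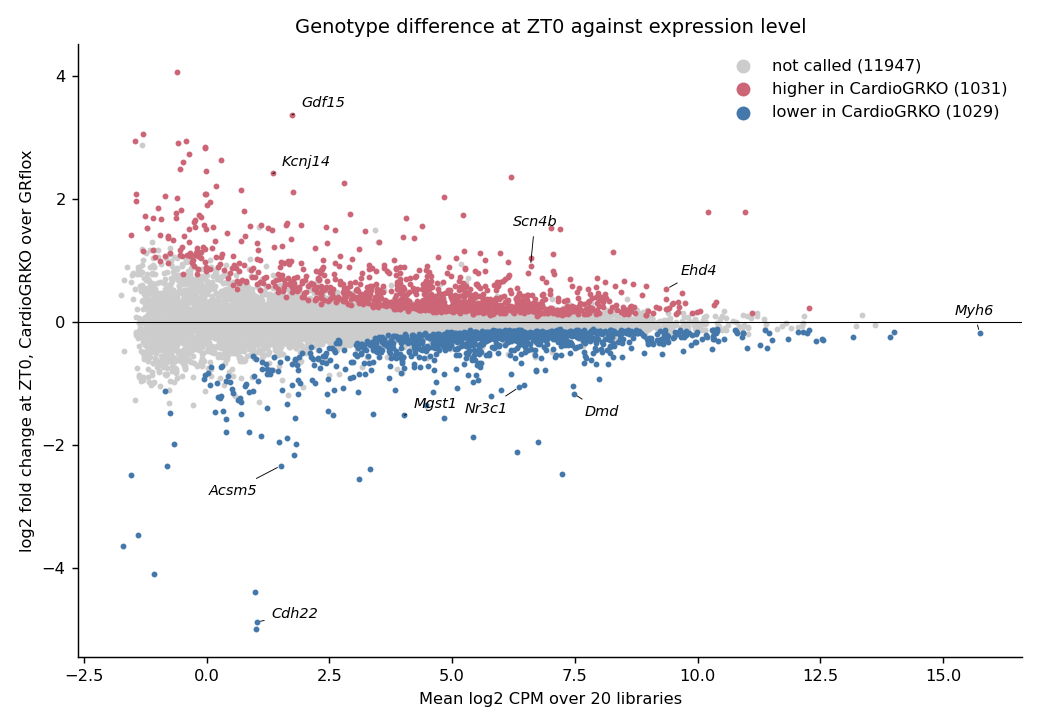
Each point is 1 of 14007 tested genes, with its mean log2 CPM over 20 libraries on the horizontal axis and its log2 fold change at ZT0, CardioGRKO over GRflox, on the vertical axis. Coloured points are the 1031 higher and 1029 lower genes; large changes lie mostly at low levels, and the highest levels hold mostly small falls.

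The largest falls and rises were taken among called genes whose libraries did not overlap, so their lack of overlap follows from the choice. The largest falls included scarce genes that were close to undetected in CardioGRKO. Cdh22, a cadherin of cell adhesion, was counted at 3.11, 2.37, 2.97, 2.28 and 1.94 CPM in GRflox and at 0, 0.0524, 0.136, 0.121 and 0 CPM in CardioGRKO. Replicates 1 and 5 had no read, and the highest CardioGRKO library held less than the lowest GRflox library by over 10-fold. The change was -4.87 ± 0.41 (adjusted p = 1.31e-08), a size that rests on few reads in CardioGRKO. Acsm5, a mitochondrial medium-chain acyl-CoA synthetase, was at 4.38, 4.66, 3.42, 2.998 and 4.17 CPM in GRflox and 1.32, 1.07, 0.542, 0.485 and 0.796 CPM in CardioGRKO, without overlap (log2 -2.34 ± 0.30, adjusted p = 6.28e-06).

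Further falls among the 15 largest were those of the hypoxia-inducible factor gene Hif3a (log2 -1.85 ± 0.34), the dioxygenase gene Phyhd1 (-1.56 ± 0.11), the microsomal glutathione transferase gene Mgst1 (-1.51 ± 0.15) and the acyl-CoA thioesterase gene Acot1 (-1.51 ± 0.18). Phyhd1 stood at 35.01, 39.8, 45.9, 37.62 and 32.8 CPM in GRflox and at 11.4, 13.1, 11.97, 12.00 and 16.5 CPM in CardioGRKO, and the 2 sets were far apart. Hif3a was scarce, with 1.14 to 1.75 CPM in GRflox and 0.165 to 0.708 CPM in CardioGRKO, and did not pass the test once all libraries were thinned to the depth of the shallowest. Acot1, Acot2 and Acot3 are near-identical neighbours, so their reads may have been shared or lost, and their values are uncertain. How the authors handled such reads is not stated in the labels or headers.

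Scarce genes were also among the largest rises. Kcnj14, a subunit of inwardly rectifying potassium channels (chromosome 7, 45816467 to 45824747), was at 1.07, 0.874, 0.698, 0.571 and 0.668 CPM in GRflox. In CardioGRKO it was at 4.28, 4.35, 4.20, 3.88 and 4.25 CPM. The CardioGRKO libraries lay close together and over 3-fold above the highest GRflox library, with a log2 fold change of 2.42 ± 0.20 (adjusted p = 7.53e-09).

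Gdf15, a secreted stress-responsive member of the TGF-beta family, was at 0.51, 0.624, 0.803, 0.428 and 0.573 CPM in GRflox and at 6.91, 13.9, 4.11, 3.27 and 2.48 CPM in CardioGRKO. All CardioGRKO libraries were above all GRflox libraries, but they spanned a wide range with replicate 2 at the top (log2 3.38 ± 0.49, adjusted p = 2.96e-05). Without replicate 2 its log2 fold change was 2.69. Ndnf, a secreted factor with fibronectin domains, rose with little spread and stood at 7.13 to 9.84 CPM in GRflox and 26.2 to 31.7 CPM in CardioGRKO (log2 1.69 ± 0.10). Sec14l5, a lipid-transfer protein gene (1.58 ± 0.16), Grin2c, a glutamate receptor subunit gene (1.58 ± 0.24), and Atp2a1, the calcium pump gene of fast skeletal muscle (1.58 ± 0.20), rose as well. Of the 30 genes with the largest rises and falls by the rule, 29 kept their call in every alternative that was run, the exception being Hif3a. The rule took only called genes without overlap and with the largest folds in these same counts. Their calls were therefore likely to be kept, and this says little about other called genes.

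**Figure D2:**
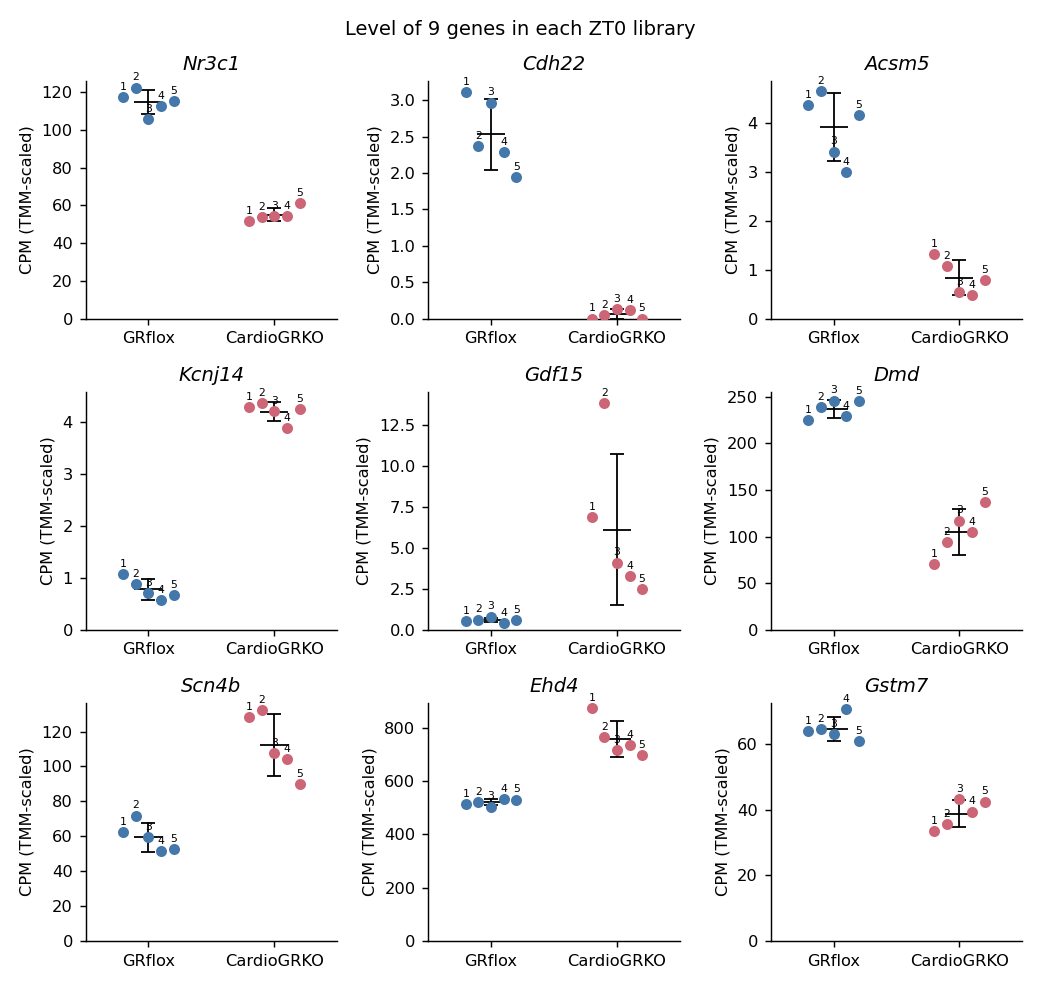
Each point is 1 ZT0 library (replicate number beside it), with the TMM-scaled CPM of the gene on a linear axis from 0; black marks are the mean and the SD of 5 libraries. In all 9 genes the libraries of the 2 genotypes do not overlap, but Cdh22, Acsm5, Kcnj14 and Gdf15 were chosen by a rule that required this. Gdf15 and Dmd spread widely in CardioGRKO, and Kcnj14 and Nr3c1 little.

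By change in CPM, which follows the abundance of a transcript, most of the genes that moved furthest changed by a small fold. Ehd4, an EH-domain protein of endosomal membrane traffic, stood at 514, 523, 505, 532 and 530.5 CPM in GRflox and 874, 766, 717, 736 and 699 CPM in CardioGRKO. The groups were apart, with a log2 fold change of 0.54 ± 0.05 (adjusted p = 6.12e-08). Wnk1, a kinase that controls ion transport (0.33 ± 0.05), Mybpc3, the cardiac myosin-binding protein C (0.24 ± 0.05), and Pam, which amidates peptide hormones (0.47 ± 0.09), rose.

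On the falling side, Mb, which codes for the oxygen store myoglobin, stood at 16059 to 17176 CPM in GRflox and 13772 to 14780.0 CPM in CardioGRKO (log2 -0.23 ± 0.04). Slc25a4, the ATP-ADP carrier of the inner mitochondrial membrane (-0.30 ± 0.04), Lpl, lipoprotein lipase (-0.28 ± 0.05), and Tnnt2, cardiac troponin T (-0.25 ± 0.05), fell without overlap. Myh6, whose promoter drives the Cre transgene, was at 54104, 55266, 59081, 55029 and 56828 CPM in GRflox and at 46376, 48401, 51688, 52296 and 49942 CPM in CardioGRKO. No library of either genotype overlapped with the other, and the change was -0.17 ± 0.04 (adjusted p = 0.0101).

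To look past chosen pathways, all tested genes were sorted by gene nomenclature into 103 families, complexes and protein classes, which took in 4681 genes (33.4% of those tested). Classes with at least 8 tested genes had a median of 16.2% of their genes called, with a range of 0 to 53.3%. The paragraphs below describe the classes with the highest shares of higher or lower genes and those with the fewest calls, in each case beside the background of 7.36% higher and 7.35% lower and a median log2 fold change over all genes of -0.006. The counts describe the classes, and no class was tested as a set. The background covers genes of all levels, but the share of lower genes rose with level. It was 2.25% among genes of the lowest levels and 17.2% among those of the highest levels, as given above. For higher genes these shares were 5.6% and 9.03%. Classes were not compared with genes of equal level, so the part of level in their shares was not tested.

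**Figure D3:**
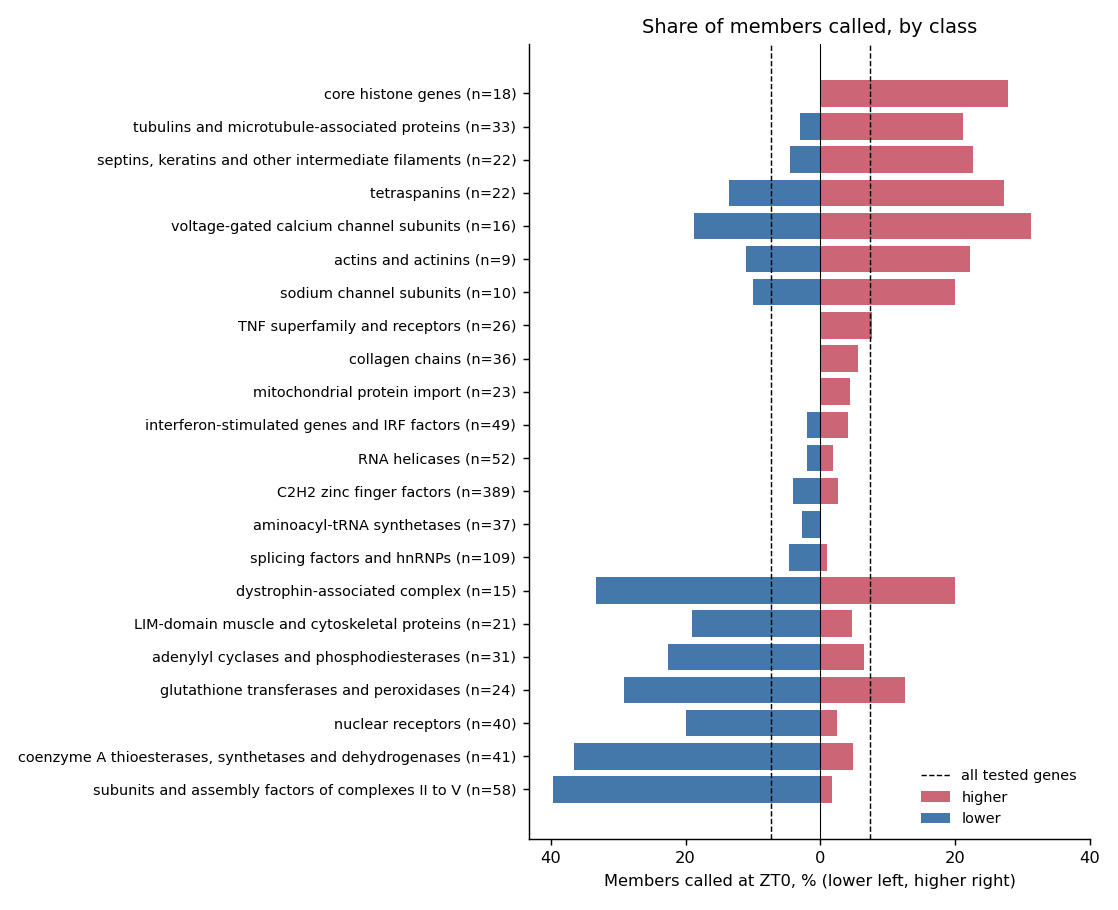
Bars give the percent of tested genes in each class called lower (left) or higher (right) in CardioGRKO at ZT0, with the number tested in brackets; dashed lines mark 7.35% and 7.36% over all tested genes. The complexes II to V of respiration reach 39.7% lower, calcium channel subunits 31.2% higher, and the 8 classes with the fewest calls reach at most 7.69% on either side.

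Ion channel subunits moved both ways. Of 16 voltage-gated calcium channel subunit genes 5 were higher and 3 lower. The 5 were the pore genes Cacna1h and Cacna1g of T-type channels, Cacna1a of P/Q-type and Cacna1d of L-type channels, and the beta subunit gene Cacnb1. Those lower were Cacna1c, the main L-type pore of the ventricle, Cacna2d1, an accessory subunit, and Cacng6. Cacna1a stood at 5.20 to 7.45 CPM in GRflox and 9.64 to 12.8 CPM in CardioGRKO (log2 0.71 ± 0.10, adjusted p = 3.43e-05), and Cacnb1 at 8.34 to 12.8 CPM in GRflox and 15.1 to 19.8 CPM in CardioGRKO (log2 0.77 ± 0.10, adjusted p = 9.74e-06). Cacna2d1 stood at 275 to 308 CPM in GRflox and 198 to 264 CPM in CardioGRKO (log2 -0.33 ± 0.08). Cacna1c stood at 521 to 569 CPM in GRflox and 442 to 458 CPM in CardioGRKO, and over the 16 genes the median log2 fold change was -0.058. Cacna1d lost its call with libraries thinned to the shallowest depth.

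Of 10 sodium channel genes 2 were higher and 1 lower. Scn4b, a beta subunit that modulates the pore, was at 62.2, 71.9, 59.7, 51.4 and 52.5 CPM in GRflox and 128, 132, 108, 104 and 89.7 CPM in CardioGRKO. Every CardioGRKO library was above every GRflox library (log2 0.91 ± 0.11, adjusted p = 2.45e-06).

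The complex around dystrophin, which links the actin cytoskeleton through the membrane to the matrix, had the highest share of called genes among classes with at least 8 tested, 8 of 15 (53.3%), 3 of them higher and 5 lower. Dmd, which codes for dystrophin (chromosome X, 82814664 to 85205050), was counted at 225, 239, 246, 229 and 245 CPM in GRflox. In CardioGRKO it was counted at 70.5, 94.3, 117, 105 and 137 CPM. Every CardioGRKO library was well below the GRflox range, replicate 1 being lowest and replicate 5 highest, with a log2 fold change of -1.17 ± 0.10 (adjusted p = 3.96e-08). Dmd has several promoters and transcripts, which the counts sum.

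Partners of dystrophin that fell by less included alpha-sarcoglycan Sgca (log2 -0.28 ± 0.06), dystrobrevin Dtna (-0.19 ± 0.05) and dystroglycan Dag1 (-0.15 ± 0.04). Dag1 was not called without CardioGRKO replicate 1, nor Dtna without replicate 2. Sspn, sarcospan (0.25 ± 0.04), and Sntb1, beta-1-syntrophin (0.89 ± 0.20), rose. Nos1, the neuronal nitric oxide synthase that docks on syntrophin, was scarce at 0.153, 0.208, 0.175, 0.286 and 0.0955 CPM in GRflox and 1.98, 1.97, 0.768, 1.21 and 0.265 CPM in CardioGRKO. It was called higher (log2 2.83 ± 0.43, adjusted p = 6.39e-05), although CardioGRKO replicate 5 lay within the GRflox range. With all libraries thinned to the shallowest depth Nos1, Sntb1 and Dtna lost their calls, leaving 1 higher and 4 lower. Utrn, the dystrophin relative utrophin (0.14 ± 0.05, adjusted p = 0.0616), and the sarcoglycan genes Sgcb and Sgcd were not called.

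Enzymes that make or break down cyclic AMP and cyclic GMP, the second messengers of adrenergic and natriuretic peptide signals, had 31 tested genes, 7 of them lower and 2 higher. The adenylyl cyclase genes Adcy6, a main cardiac isoform (log2 -0.31 ± 0.05), and Adcy1 (-0.65 ± 0.12) were lower. Among phosphodiesterases Pde7a (-0.61 ± 0.08) and Pde4a (-0.33 ± 0.07) were lower, and Pde1c (0.45 ± 0.06) and Pde7b (0.47 ± 0.09) were higher. Pde7a and Pde7b code for closely related enzymes and went opposite ways: Pde7a stood at 44.4 to 53.2 CPM in GRflox and 28.8 to 36.4 CPM in CardioGRKO, and Pde7b at 27.1 to 33.8 CPM in GRflox and 35.6 to 48.9 CPM in CardioGRKO. The count of 7 lower genes was 4 without CardioGRKO replicate 1, without its replicate 4, without GRflox replicate 2 or 3, and with thinned libraries.

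Of 40 nuclear receptor genes 8 were lower, 1 of them the targeted Nr3c1, and 1 was higher. Thrb, a thyroid hormone receptor, stood at 30.6 to 34.1 CPM in GRflox and 19.9 to 26.9 CPM in CardioGRKO (log2 -0.38 ± 0.07, adjusted p = 0.000631). Rxra and Rxrg, which pair with many other receptors, had log2 fold changes of -0.21 ± 0.05 and -0.23 ± 0.06. The estrogen-related receptor genes, whose products regulate mitochondrial genes, were called at -0.16 ± 0.05 (Esrra), -0.26 ± 0.08 (Esrrb) and -0.17 ± 0.04 (Esrrg). Esrra lost its call in 12 and Esrrb in 8 of 18 alternatives, some with 1 library left out. Nr1d2, a repressor in the circadian clock, was the 1 higher gene (log2 0.46 ± 0.09). Nr3c2, the mineralocorticoid receptor that also binds glucocorticoids, was not called (log2 0.12 ± 0.13, adjusted p = 0.588), nor were Ppara, Ppard and Pparg. The class count moved with single libraries: 5 genes were lower without CardioGRKO replicate 1, without its replicate 3 or without GRflox replicate 1, and 3 with thinned libraries.

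Glutathione transferases and peroxidases, which detoxify electrophiles and peroxides, had 24 tested genes, 7 lower and 3 higher, and 7 were lower without replicate 1 too. Gstm7, a cytosolic transferase (chromosome 3, 107926334 to 107931877), was at 63.95, 64.5, 63.03, 70.5 and 60.8 CPM in GRflox and at 33.4, 35.6, 43.1, 39.4 and 42.5 CPM in CardioGRKO. The groups did not overlap (log2 -0.73 ± 0.08, adjusted p = 1.18e-06). Mgst3 of the membrane-bound family stood at 231 to 258 CPM in GRflox and 163 to 174 CPM in CardioGRKO (log2 -0.55 ± 0.05, adjusted p = 1.76e-07) and Gstm1 at 225 to 242 CPM in GRflox and 160.3 to 181 CPM in CardioGRKO (log2 -0.48 ± 0.06, adjusted p = 1.65e-06). The peroxidase genes Gpx1, Gpx3 and Gpx4 were not called, and Gsto1 rose (log2 0.26 ± 0.06). The Gstm genes are similar copies in 1 cluster, so reads may have been shared between them.

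Enzymes that activate, hydrolyse or oxidise acyl-CoA had 15 lower and 2 higher genes of 41 (36.6% lower), with a median log2 fold change of -0.127, and 15 lower genes were also counted without replicate 1. Beyond Acsm5, Acot11, a thioesterase, stood at 43.98 to 50.2 CPM in GRflox and 29.5 to 31.4 CPM in CardioGRKO (log2 -0.62 ± 0.07, adjusted p = 2.09e-06). Acaa2 (-0.35 ± 0.06), Hadh (-0.34 ± 0.07) and Ech1 (-0.33 ± 0.07), which act in mitochondrial beta-oxidation, fell too. Acad12, of the acyl-CoA dehydrogenase family, rose (0.28 ± 0.06).

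Subunits and assembly factors of the respiratory complexes II to V had 58 tested genes, 23 lower and 1 higher (39.7% lower), and 17 were lower without replicate 1. These changes were small: the median of the class was -0.100 on the log2 scale. Cox10, which acts in the synthesis of heme A for complex IV, stood at 120.0 to 133 CPM in GRflox and 88.9 to 105 CPM in CardioGRKO (log2 -0.35 ± 0.05, adjusted p = 3.23e-05). Atp5d and Atp5g1 of the ATP synthase had log2 fold changes of -0.24 ± 0.05 and -0.23 ± 0.06. Cox19, a copper-related assembly factor of complex IV, was the 1 higher gene, at 17.9 to 19.7 CPM in GRflox and 22.4 to 29.96 CPM in CardioGRKO (log2 0.49 ± 0.11). Cell type markers moved beside these metabolic genes: of 12 cardiomyocyte markers 7 were lower and none higher, and their summed level was 140496 to 145586 CPM in GRflox and 122192 to 131623 CPM in CardioGRKO. The part of that shift in the metabolic falls was not tested. Over all tested genes 7.35% were lower, and of the highest 20% by level 17.2%.

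Tubulins and microtubule-associated proteins counted 7 higher and 1 lower genes among 33, with a median log2 fold change of 0.02. Without replicate 1 these counts were 6 and 0. Mapre3, a protein of growing microtubule ends, stood at 72.1 to 82.7 CPM in GRflox and 97.1 to 115 CPM in CardioGRKO (log2 0.45 ± 0.07, adjusted p = 0.000146). Its relative Mapre2 (0.30 ± 0.05) and the microtubule-binding Map4 (0.23 ± 0.04) rose. Septins, keratins and other intermediate filament genes held 5 higher genes and 1 lower gene of 22, and the median of the class was -0.006. The 1 lower gene, Sept9, lost its call in 11 of 18 alternatives. With thinned libraries 3 genes of this class were higher and 0 lower. Krt222, a keratin-like gene, stood at 56.7, 55.5, 49.2, 52.3 and 55.4 CPM in GRflox and 91.4, 84.6, 86.97, 76.2 and 93.4 CPM in CardioGRKO, without overlap (log2 0.68 ± 0.07, adjusted p = 3.10e-07). Desmin (Des) and vimentin (Vim), the main intermediate filaments of muscle and of stromal cells, were not called, at -0.11 ± 0.05 and -0.08 ± 0.07.

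Of 9 actin and actinin genes 2 were higher and 1 lower, with a median of -0.06 on the log2 scale. Acta1, the skeletal alpha-actin that is also made in the fetal heart, was at 332, 498, 468, 455 and 593 CPM in GRflox and 1988, 2263, 1260.3, 1593 and 1069.8 CPM in CardioGRKO. The groups did not overlap (log2 1.80 ± 0.30, adjusted p = 0.000145). Acta2, the smooth muscle actin, stood at 172 to 240.4 CPM in GRflox and 397 to 541 CPM in CardioGRKO (log2 1.14 ± 0.14). Actg2, a scarce smooth muscle actin with 0.957 to 1.97 CPM in GRflox and 0.442 to 1.06 CPM in CardioGRKO, was called lower with overlap (log2 -0.96 ± 0.29, adjusted p = 0.0267) and lost its call in 6 of 18 alternatives, each with 1 library left out (CardioGRKO replicate 1, 2, 3 or 5, GRflox replicate 4 or 5). Actc1, the main actin of the heart, the nonmuscle actins Actb and Actg1 and the actinins were not called. Tagln, another smooth muscle gene, was lower (-0.47 ± 0.10), and 4 of the 10 tested markers of pericytes and smooth muscle fell and Acta2 alone rose. Without replicate 1, 2 of the 10 were lower. LIM-domain proteins of muscle had 4 lower genes and 1 higher gene among 21, with a median of -0.075. Pdlim4 fell (log2 -0.85 ± 0.13, adjusted p = 6.02e-05) and Pdlim1 rose (log2 0.39 ± 0.06, adjusted p = 6.49e-05), 2 members of the same family of Z-disc and stress fibre adaptors.

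Tetraspanins, membrane proteins that organise adhesion and signalling complexes, had 22 tested genes, 6 higher and 3 lower. Cd151 stood at 213 to 247 CPM in GRflox and 266 to 314 CPM in CardioGRKO (log2 0.32 ± 0.05, adjusted p = 0.000178), and Tspan12 at 25.2 to 28.5 CPM in GRflox and 33.6 to 42.3 CPM in CardioGRKO (log2 0.47 ± 0.08). Tspan18 was lower (log2 -0.34 ± 0.09). Histone genes had 5 higher and none lower of 18 tested, and a median of 0.229. They included Hist1h1c (0.42 ± 0.10) and H2afj (0.53 ± 0.12). With thinned libraries 1 histone gene was called, and 3 tetraspanins were higher and 1 lower. Without GRflox replicate 1 only 1 tetraspanin was lower, and without GRflox replicate 2, 4 or 5 or CardioGRKO replicate 1, 2 or 3 there were 2. The libraries were poly(A)-enriched, and transcripts of replication-dependent histone genes mostly lack a poly(A) tail.

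Several large classes had few calls. Of 37 aminoacyl-tRNA synthetases 1 was called, of 52 RNA helicases 2, of 23 genes of mitochondrial protein import 1, and of 109 splicing factors and hnRNPs 6. Of those 6, 5 were lower, and 3 were lower without GRflox replicate 2, without CardioGRKO replicate 1 or 2, and with thinned libraries. Among the 389 C2H2 zinc finger genes 10 were higher and 16 lower (6.68%), and the 10 became 6 without GRflox replicate 1 or 3 and 4 with thinned libraries. Collagen chains had 2 higher and none lower of 36, with Col8a1 rising (log2 0.48 ± 0.12, adjusted p = 0.0101) and Col1a1, the main fibrillar chain, at -0.06 ± 0.09 (adjusted p = 0.706). Interferon-stimulated genes and factors had 3 called of 49, but 41 of the 49 had a change below 0 and the median was -0.125. The median of the other 7 classes with few calls lay between -0.046 and 0.032. The class of the TNF superfamily and its receptors had 2 called of 26, the receptor gene Tnfrsf23 and Tnfaip8. Tnfaip8 was taken in by its symbol and is neither a ligand nor a receptor of that family. Its call was lost without GRflox replicate 3. Within the splicing class Rbfox1, a regulator of muscle exons, stood at 94.7 to 103 CPM in GRflox and 59.9 to 74.2 CPM in CardioGRKO (log2 -0.52 ± 0.07, adjusted p = 1.78e-05). A class with few calls may still hold changes below what these libraries show. In simulated counts the test recovered 74% of 100 genes changed by 1.5-fold and 93% of 100 changed by 2-fold. Far fewer genes changed there than the 2060 called here, and they were drawn from all levels. These rates are therefore not those of this comparison or of any class.

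Promoter windows were searched for the paired half-site that the receptor is known to bind. RefSeq windows of GRCm38.p6, from 250 bases before to 50 after each start, were available for 11083 of the 14007 tested genes. The motif GNACA, 3 bases of any kind and TGTNC, which reads the same on both strands, was in 0.868% of the 806 lower genes with a window, in 0.244% of the 820 higher genes and in 0.433% of all tested genes with one. That is 7 lower and 2 higher genes. Among all 27025 RefSeq windows of this length 0.537% held it. The stricter AGAACA, 3 bases and TGTTCT was in no called gene and in 1 tested gene. Of the 15 largest falls 10 had a window and of the 15 largest rises 12, and none of these held the motif. A match describes letters, not a site, and a window without one says nothing of binding elsewhere.

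Of the 7 lower genes with the motif, 5 had a match that began before the start. The 3 of these with the largest falls are shown, so that the letters can be read beside the levels. They were chosen after their values were seen. Gnmt (log2 -1.24) and Ctnna3 (-0.94), with the match after the start, are not shown, although both fell further than Mt1 and Car14. Fem1a and Foxj2, also among the 5, had log2 fold changes of -0.21 ± 0.05 and -0.20 ± 0.06. The 2 higher genes, Apitd1 (1.10 ± 0.28) and Ndc1 (0.21 ± 0.07), also had a match that began before the start. The match began 7 bases before it in Foxj2 and 4 in Ndc1, and so ran across the start in both. The match is in capitals, and each window is given 5′ to 3′ on the strand of the gene. Amy1 (chr3:113577701-113578000, minus strand), an amylase gene with close copies beside it, was at 9.22, 7.36, 7.22, 6.78 and 8.21 CPM in GRflox and 4.12, 3.04, 2.26, 2.67 and 2.83 CPM in CardioGRKO. Mt1 (chr8:94178839-94179138, plus strand), a metallothionein, was at 84.2, 89.96, 107, 77.1 and 90.8 CPM and 57.8, 62.99, 52.5, 47.2 and 40.8 CPM. Car14 (chr3:95904636-95904935, minus strand), a membrane carbonic anhydrase, was at 163, 157, 149.6, 173 and 147 CPM and 94.5, 94.1, 115, 107 and 121 CPM. The log2 fold changes were -1.45 ± 0.17, -0.78 ± 0.15 and -0.57 ± 0.07, in that order.
Amy1: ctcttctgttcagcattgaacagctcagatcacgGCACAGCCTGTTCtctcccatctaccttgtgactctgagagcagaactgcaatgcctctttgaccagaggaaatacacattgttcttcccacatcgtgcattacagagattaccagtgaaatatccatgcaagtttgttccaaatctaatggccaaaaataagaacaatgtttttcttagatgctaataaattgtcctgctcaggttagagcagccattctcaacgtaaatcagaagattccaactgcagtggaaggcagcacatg
Mt1: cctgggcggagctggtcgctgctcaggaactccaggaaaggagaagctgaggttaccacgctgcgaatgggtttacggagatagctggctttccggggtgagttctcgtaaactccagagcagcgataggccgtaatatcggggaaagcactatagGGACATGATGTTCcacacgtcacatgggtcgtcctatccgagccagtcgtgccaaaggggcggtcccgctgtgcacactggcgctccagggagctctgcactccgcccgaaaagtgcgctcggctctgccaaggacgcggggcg
Car14: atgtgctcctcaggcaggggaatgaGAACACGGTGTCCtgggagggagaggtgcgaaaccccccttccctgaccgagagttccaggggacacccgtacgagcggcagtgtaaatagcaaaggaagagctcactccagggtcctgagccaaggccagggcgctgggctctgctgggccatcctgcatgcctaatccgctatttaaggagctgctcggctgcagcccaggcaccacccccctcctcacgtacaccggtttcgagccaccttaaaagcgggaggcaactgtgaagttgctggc

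The genotype comparison at ZT12 uses 10 other libraries. There 2952 genes were called (21.1%), 1453 higher (10.4%) and 1499 lower (10.7%). Of the 1031 genes higher at ZT0, 756 were also higher at ZT12, which is 73.3% of the ZT0 list and 52.0% of the ZT12 list. Of the 1029 lower genes, 753 were also lower, 73.2% and 50.2% of the lists. A further 273 higher and 275 lower genes were not called at ZT12, but a call at 1 time is not a difference between times. Called in opposite directions at the 2 times were 2 genes higher at ZT0, Dbp and Glul, and 1 lower at ZT0, Ccdc69. The interaction of genotype and time, which tests that difference, was called in 26 genes (0.186%), 13 of which were called at ZT0.

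In 5 of these 13 the estimated genotype difference was larger in size at ZT0, as the plot of both times shows. The interaction tests the signed difference, so which time had the larger size was not tested. Dbp, a clock-controlled transcription factor gene, was at 8.77, 10.4, 8.97, 10.3 and 9.64 CPM in GRflox and 23.7, 23.4, 18.7, 17.2 and 16.3 CPM in CardioGRKO at ZT0. All CardioGRKO libraries were above all GRflox libraries (log2 1.04 ± 0.13), whereas at ZT12 Dbp was called lower, at -0.32 ± 0.10 (interaction adjusted p = 0.000332). Per3, a period gene of the clock, showed 0.89 ± 0.12 at ZT0 and 0.03 ± 0.10 at ZT12 (interaction adjusted p = 0.0137). Arntl, which codes for the clock activator BMAL1, showed -0.62 ± 0.12 at ZT0 and 0.57 ± 0.21 at ZT12 (interaction adjusted p = 0.0397).

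Outside the clock, Akap1, which anchors protein kinase A at the outer mitochondrial membrane, was at 316, 323, 309, 323 and 306 CPM in GRflox and 227, 256, 266, 254 and 237 CPM in CardioGRKO at ZT0. The 2 groups were apart there (log2 -0.34 ± 0.04), and the change was -0.02 ± 0.04 at ZT12 (interaction adjusted p = 0.021). Zfp646, a zinc finger gene, showed -0.24 ± 0.04 and 0.06 ± 0.04 (interaction adjusted p = 0.0465). Zfp646 lost its ZT0 call with thinned libraries.

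**Figure D4:**
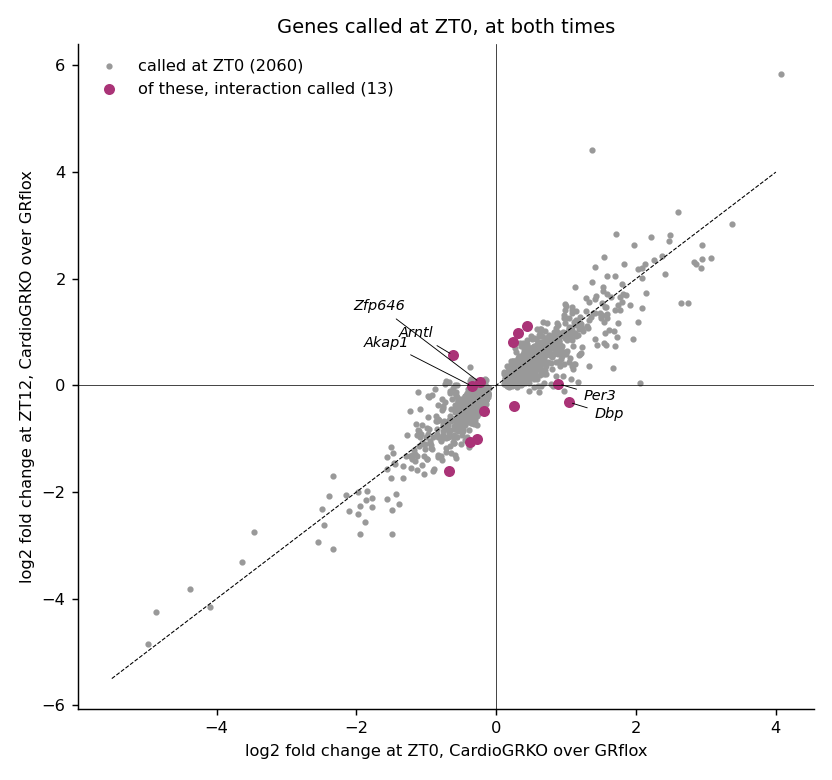
Each point is 1 of the 2060 genes called at ZT0, with its log2 fold change (CardioGRKO over GRflox) at ZT0 on the horizontal and at ZT12 on the vertical axis; the dashed line marks equal values. The 13 large points passed the interaction test, and among them Per3 lies right of the line near 0 at ZT12 and Dbp right of it below 0, while Arntl lies left of 0 at ZT0 and above 0 at ZT12.

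CardioGRKO replicate 1 was the shallowest library and the one most often farthest from GRflox, among genes called with it included. Of the 2060 called genes it was the CardioGRKO library farthest from GRflox in 42.5%, against 20.3, 5.34, 13.3 and 18.3% for replicates 2 to 5. It was the nearest library in 12.5%. By spread over all well-expressed genes it was not alone. The SD of its log2 difference from the median of the other CardioGRKO libraries was 0.204. For replicates 2 to 5 this SD was 0.193, 0.131, 0.151 and 0.205. Without it 1636 genes were called: 860 of the higher and 726 of the lower genes kept their call, 474 lost it, none changed direction, and 47 were new among the genes tested both ways. All 2060 genes kept the sign of their change. Leaving out any 1 of the other 9 ZT0 libraries gave 1647 to 1968 called genes.

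E2f1 and the genes Mcm2, Mcm3, Mcm4, Mcm5, Mcm6 and Mcm7, the Mcm genes chosen after their values were seen, were highest in replicate 1. E2f1, a transcription factor of entry into the DNA synthesis phase, was at 1.22, 1.58, 1.64, 1.78 and 1.53 CPM in GRflox and 14.98, 3.33, 2.48, 4.58 and 2.65 CPM in CardioGRKO. The remaining 4 CardioGRKO libraries were also above all GRflox libraries, and without replicate 1 the log2 fold change was 1.11 in place of 1.62 ± 0.34. Mcm2, a subunit of the replicative helicase, was at 12.8, 9.61, 13.5, 12.7 and 10.2 CPM and 43.5, 18.2, 18.8, 20.8 and 13.9 CPM. Its change was 0.89 ± 0.19 with replicate 1 and 0.63 without it. Mcm5 and Mcm7 of the same helicase were called higher with and without replicate 1, and Mcm3, Mcm4 and Mcm6 were not called. In the class of replication and mitosis genes 11 of 87 were higher and 7 lower, and without replicate 1 these were 8 and 5.

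Fetal-type genes differed in how far they rested on replicate 1. Nppa, the atrial natriuretic peptide gene, stood at 65.03, 49.8, 90.7, 55.7 and 65.1 CPM in GRflox and 409, 191, 91.3, 155 and 109.6 CPM in CardioGRKO. Replicate 1 was over 2-fold above the next library, replicate 3 was just above the highest GRflox library, and the log2 fold change went from 1.52 ± 0.31 to 1.08 without replicate 1. Nppb, the B-type natriuretic peptide gene, was at 64.5, 109, 108, 61.7 and 71.6 CPM in GRflox and 303, 298, 193, 209.6 and 206 CPM in CardioGRKO. The groups did not overlap, and its log2 fold change was 1.53 ± 0.23 with replicate 1 and 1.45 without it (adjusted p = 0.000235). Myh7, the slow myosin heavy chain gene, was at 338, 296, 279, 316 and 388 CPM and 889, 314, 364, 496 and 441 CPM. Its call (log2 0.62 ± 0.19, adjusted p = 0.0332) was lost without replicate 1 (0.32, adjusted p = 0.159) and in 7 further alternatives, 5 of them with another ZT0 library left out. Whether the depth, the run label or the state of that heart goes with the values of Nppa and Myh7 was not tested.

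**Figure D5:**
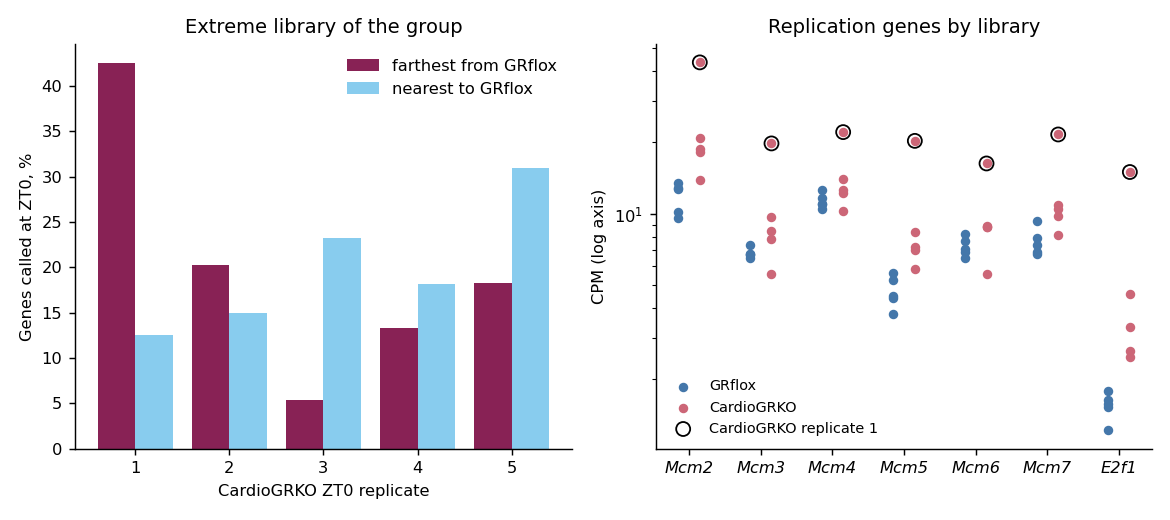
Left, for each CardioGRKO ZT0 replicate, the percent of the 2060 called genes in which it was the library of its group farthest from or nearest to GRflox, from 0; right, CPM on a log axis of 7 replication genes in each ZT0 library. Replicate 1 was farthest in 42.5% of the genes, and it is the highest library for all 7 genes on the right.

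Markers of the cell types of the wall were read beside these results. Of 12 endothelial markers 5 were lower (4 without replicate 1), and the summed level was 2298 to 2372 CPM in GRflox and 2003 to 2161 CPM in CardioGRKO, without overlap. Fibroblast markers had 1 lower of 12, with sums of 2673 to 3108 and 2712 to 2946 CPM. Of 6 tested lymphatic endothelial markers 1, Reln, was lower, and it lost its call in 5 of 18 alternatives. No macrophage marker of 9 tested was called. None was called among 2 tested T and NK cell, 3 neutrophil and monocyte and 3 adipocyte markers. Nor was any among 7 Schwann cell and neuronal, 5 mesothelial and 5 mast cell markers tested. Most T and NK cell and adipocyte markers did not pass the expression filter. Blk, a kinase known from B cells, was called higher, but the other 6 measured B cell markers summed to 1.05 to 3.31 CPM in GRflox and 1.42 to 3.95 CPM in CardioGRKO.

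Atrial and skeletal muscle markers were read beside the rises of Nppa, Acta1 and Atp2a1. Of 7 tested atrial markers Nppa and Pam were higher and none lower, the median log2 fold change was -0.258, and the list summed to 674 to 950 CPM in GRflox and 892 to 1489 CPM in CardioGRKO. Most of this sum was Pam, at 590 to 717 CPM in GRflox and 766 to 1030 CPM in CardioGRKO. The atrial light chain gene Myl7 stood at 2.36 to 40.5 CPM in GRflox and 3.84 to 15.3 CPM in CardioGRKO, with overlap (log2 -0.83 ± 0.75, adjusted p = 0.522). CardioGRKO replicate 1, the library highest in Nppa, held 8.56 CPM of Myl7. Of 5 tested skeletal muscle markers Acta1, Atp2a1 and Tnnt3 were higher and none lower, with a median of 1.118 and sums of 3042 to 3335 CPM in GRflox and 3532 to 4824 CPM in CardioGRKO. Nearly all of this sum was Acta1 and Ckm, which is also on the cardiomyocyte list. Ckm stood at 2454 to 2875 CPM in GRflox and 2368 to 2587 CPM in CardioGRKO and was not called. Tnnt3, the fast troponin T gene, was scarce, with 0.255 to 0.637 CPM in GRflox and 0.659 to 1.26 CPM in CardioGRKO (log2 1.12 ± 0.28). The myosins and myogenic factors that define skeletal muscle were at or near 0: Myh1, Myh2, Myh4, Myh8, Myod1 and Myog reached at most 0.183 CPM in any ZT0 library. The haemoglobin genes Hba-a1, Hba-a2, Hbb-bs and Hbb-bt are listed at 0 in all 20 tables, so blood content could not be read from them.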

How the data were processed

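Whole-number counts of reads per gene were deposited by the authors for each library and are not normalized. The submitters' processing notes name genome build mm10, the aligner STAR (2.5.1), Subread (1.5.1) with featureCounts, and DESeq2 (version 1.38.3). Strand use, treatment of reads that match several genes, and annotation release were not stated in the labels or headers. Overlapping, antisense or near-identical genes may therefore share or lose reads.

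Each table had 24918 lines. Summing lines with the same Entrez identifier left 24059 genes, of which 99.6% matched the RefSeq gene table of GRCm38.p6, the source of the coordinates. The 20 libraries held 5854462 to 37648421 counts, and those at ZT0 had a median of 23223656. Every pair of ZT0 replicates of a genotype was further apart than sampling noise allows, with a chi-square per gene of at least 4.22.

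Genotypes were compared in R 4.3.3 with edgeR 4.0.16 and its quasi-likelihood test, TMM factors, filterByExpr (minimum count 10, minimum total 15) and 1 mean per group over all 20 libraries. A gene is called where the Benjamini-Hochberg adjusted p over all tested genes is under 0.05. Standard errors were derived from the log2 fold change and its F statistic. Alternatives were RLE and upper-quartile factors, DESeq2 1.42.0, voom with quality weights of limma 3.58.1, no filter, only the ZT0 libraries, a replicate block, thinned libraries, and each ZT0 library left out. The code was tested on simulated counts of 14007 genes at ZT0, where 74% of 100 genes changed by 1.5-fold and 93% of 100 changed by 2-fold were recovered, with 12 false calls. Figures were drawn with matplotlib 3.10.9.

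The members, gene classes and marker lists were chosen with earlier results of these data known. The naming rule takes Nr3c1, then the 15 largest rises and 15 largest falls among called genes whose libraries do not overlap and whose mean log2 CPM is 1 or more (provisional gene names passed over). It adds the 10 largest changes in CPM each way, up to 4 genes each way with the smallest p in each described class, interaction genes larger at ZT0, and marker genes. The classes described are the 8 with the highest share higher, the 8 with the highest share lower (at least 8 tested) and the 8 with the fewest calls (at least 20 tested). Genes printed outside this rule, such as Dag1, Utrn, the Esrr genes, Nr3c2, Acaa2, Hadh, Ech1, Atp5d, Atp5g1, Des, Vim, Amy1, Car14, Nppb, Glul, Ccdc69, the Mcm genes and Myh7, were chosen after their values were seen. Some genes that the rule takes are not reported here, and neither are genes of the mitochondrial genome.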

Additional observations from a re-analysis of the deposited data

Results flagged for a closer look

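In 108 sets of 5 libraries (54 genes, each genotype at ZT0), 7 had a single library that lay far from the other 4 by Dixon's test, and chance gives about 1 in 20. In CardioGRKO replicate 1, E2f1 (15 CPM) and Tnnc1 (2561 CPM) were highest and Sec14l5 (3.29 CPM) was lowest of the group. Nr3c1 was highest in CardioGRKO replicate 5, at 61.1 CPM. In GRflox, Ankrd1 was highest in replicate 5 (1138 CPM), Meig1 in replicate 4 (4.14 CPM) and Ryr2 in replicate 3 (3068 CPM).

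The genotype difference itself differed between the times of day in 5 genes that were called at ZT0 and changed more there (edgeR interaction test). As the ZT0 change minus the ZT12 change on the log2 scale, this was 1.36 for Dbp, 0.86 for Per3, -0.33 for Akap1, -1.18 for Arntl and -0.29 for Zfp646.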

How the results depend on the processing

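No gene called at ZT0 was called in the opposite direction under any of the 18 alternatives, which gave 1336 to 2515 called genes at ZT0. Some printed genes that were not called changed sign between alternatives, such as Hspa1a (log2 -1.2 to 2.55), Hspa1b (-1.62 to 2.51) and Zdhhc23 (-0.47 to 0.65). Thinning all libraries to the shallowest total gave 1336 (634 lower) in place of 2060 (1029 lower), with fewer reads and 12469 genes tested. Leaving out each ZT0 library in turn gave 1636 to 1968 called genes and a log2 fold change of Nr3c1 of -1.09 to -1.03. Of 159 called genes under the naming rule, 43 lost their call in at least 1 alternative and 116 in none. The interaction of genotype and time was called in 69 genes by DESeq2 and in 24 without CardioGRKO replicate 1, against 26; the cause was not tested. A replicate block gave 2233 called genes against 2006 in the same 10 libraries without it. The numbers were not taken to pair the libraries, since same-numbered libraries correlated at -0.048 to 0.17 and not every library correlated best with its own number. At this depth 74% of simulated 1.5-fold changes were recovered, so changes of that size can be missed. Far fewer genes changed in the simulation than were called here, so the rate itself does not carry over.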

Other observations

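Some scarce genes below the expression floor of the naming rule had larger folds than most genes named in the report; they were chosen after their values were seen. Shisa6, an auxiliary subunit of glutamate receptors, was at 3.06, 2.70, 6.25, 2.36 and 2.77 CPM in GRflox and 0, 0.236, 0.226, 0.0606 and 0.177 CPM in CardioGRKO at ZT0 (log2 -4.38 ± 0.41, edgeR adjusted p = 7.27e-08). The groups did not overlap, and the change at ZT12 was -3.81 ± 0.37. Sv2c, a synaptic vesicle protein, had no read in 3 of 5 CardioGRKO libraries and 0.286 to 0.796 CPM in GRflox. Mstn, which codes for myostatin, a secreted brake on muscle growth, was at 0.14 to 0.541 CPM in GRflox and 0 to 0.0885 CPM in CardioGRKO (log2 -2.49 ± 0.51).

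Higher in CardioGRKO were Elavl2, a neuronal RNA-binding protein, with 0.051 to 0.214 CPM in GRflox and 0.788 to 1.504 CPM in CardioGRKO (log2 2.95 ± 0.33), Brinp1, a gene known from the nervous system, with 0.0832 to 0.357 CPM in GRflox and 0.949 to 1.81 CPM in CardioGRKO (2.86 ± 0.29), and Npy4r, a receptor of the neuropeptide Y family, with 0.105 to 0.255 CPM in GRflox and 0.531 to 1.76 CPM in CardioGRKO (2.74 ± 0.35). Each of these 6 genes kept its call in all alternatives in which it was tested. Of the 18 alternatives, Shisa6 was tested in 18, Elavl2, Brinp1 and Npy4r in 17, and Sv2c and Mstn in 15. The 6 genes were chosen after their values were seen in these same counts. Their calls were therefore likely to be kept, which says little about other scarce genes. Of 7 tested Schwann cell and neuronal markers none was called, and their summed level was 27.6 to 29.3 CPM in GRflox and 22.6 to 27.0 CPM in CardioGRKO.

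A few genes split the libraries without regard to genotype. Zdhhc23, a palmitoyltransferase, was at 0.612, 12.4, 14.2, 0.214 and 0.255 CPM in GRflox and 6.26, 9.54, 10.7, 0.152 and 0.265 CPM in CardioGRKO. Both genotypes thus held libraries near 0 and libraries of several CPM. The heat shock genes Hspa1a and Hspa1b were highest in CardioGRKO replicate 2, at 59.95 and 71.2 CPM, and next in GRflox replicate 3, at 16.3 and 22.8 CPM, and neither was called.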
